A study of Homo sapiens with 6 samples.

Results

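The miR-29 family of microRNAs (miRNAs) was followed across the arrays as the probes named hsa-miR-29a, hsa-miR-29b and hsa-miR-29c. These are 3 of the 1719 human miRNA probes, each with 1 spot per array. The samples were HK-2 cells, a human kidney line derived from proximal tubule epithelium and immortalised with genes of a papillomavirus. The 3 control samples were kept for 48 h in medium with 0.2% fetal calf serum (FCS), and the 3 treated samples for 48 h in the same low serum with 5 µg/ml aristolochic acid, a plant nephrotoxin that forms DNA adducts. Before that, all cells were grown in the same hormone-supplemented medium, and all belong to the same line. The series asked which miRNAs differ between the groups. Whether the replicates are separate cultures is not stated in the labels. The p-values therefore cover the spread among these samples alone, and that spread may be technical.

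The miR-29 miRNAs are known as repressors of extracellular matrix genes. They pair with sites in the mRNAs of fibrillar and basement membrane collagens, elastin and fibrillin, and loss of miR-29 under TGF-beta signalling accompanies fibrosis in kidney, heart, liver and lung. Aristolochic acid nephropathy is a tubulointerstitial fibrosis, in which tubular cells are a target of the toxin. The family is made from a pair of transcripts: one carries miR-29a and a copy of miR-29b, and the other carries miR-29c and a second copy of miR-29b.

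The mature sequences show what the 3 members share and how the probes could tell them apart. They were taken from the RefSeq table of assembly GRCh38.p14, under their current names with the suffix 3p, and capitals mark the seed (bases 2 to 8).
miR-29a: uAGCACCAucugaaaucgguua
miR-29b: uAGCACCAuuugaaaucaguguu
miR-29c: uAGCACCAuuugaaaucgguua
All 3 have the seed AGCACCA, and of the 2370 mature human miRNA names in that table these 3 alone have it. Positions are counted from 1 at the 5′ end. MiR-29a and miR-29c were the same at 21 of 22 bases, and the single substitution from miR-29a to miR-29c was C10U. From miR-29c to miR-29b there were 3 substitutions over 22 bases, G18A, U21G and A22U, and miR-29b is 23 bases long. The labels and files give no sequence of the array probes themselves, so how much of a member's signal came from the others was not tested.

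The hairpins show which product belongs to which cluster. Capitals mark the products of the 5p arm (left) and the 3p arm (right).
MIR29A: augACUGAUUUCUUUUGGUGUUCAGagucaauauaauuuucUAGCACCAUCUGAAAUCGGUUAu
MIR29B1: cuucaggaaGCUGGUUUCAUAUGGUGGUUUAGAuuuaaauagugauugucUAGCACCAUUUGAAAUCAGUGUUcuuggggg
MIR29B2: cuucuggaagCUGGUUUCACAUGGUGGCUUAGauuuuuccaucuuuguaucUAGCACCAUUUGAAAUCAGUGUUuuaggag
MIR29C: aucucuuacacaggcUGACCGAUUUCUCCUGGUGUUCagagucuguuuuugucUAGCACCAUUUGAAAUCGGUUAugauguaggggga
In GRCh38.p14, MIR29A lies at chr7:130876747-130876810 and MIR29B1 at chr7:130877459-130877539, both on the minus strand with 648 bases between them. No other gene of the RefSeq table spans either. MIR29C lies at chr1:207801852-207801939 and MIR29B2 at chr1:207802443-207802523, on the minus strand with 503 bases between them. Both are inside MIR29B2CHG, a long non-coding RNA gene. MiR-29a thus reports the chromosome 7 cluster and miR-29c the chromosome 1 cluster. MiR-29b comes from both and cannot be assigned, because its mature sequence is the same from either hairpin. The 5p products differ between the 4 hairpins. The arrays list them under their older names with an asterisk.

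All arrays carried 3136 spots, and between 644 and 936 human probes were kept above background by the authors' criterion. The background that the authors subtracted ran from 50.6 to 51.8 for control and from 53.3 to 61.8 for treated arrays. The summed signal of kept human probes ran from 80088 to 101940 and from 108515 to 120739. The spike-in control spots had mean log2 intensities of 11.85 to 12.09 in control and 12.13 to 12.38 in treated arrays. Array brightness thus separated the groups without overlap, so that treatment and any batch cannot be told apart. Among markers of kidney tubules, miR-192, miR-194 and miR-215 stood above background on all 6 arrays and miR-204 on 2. The epithelial miR-200a, miR-200b, miR-200c and miR-429 were kept on all 6 arrays and miR-141 on 5. The blood marker miR-451 and the neural marker miR-124 were kept on 0 arrays. In contrast, miR-142-3p, miR-126, miR-1 and miR-9, markers of blood, endothelium, muscle and neurons, were kept on all 6. The blood markers miR-144 and miR-223 were kept on 2 and 1. Among muscle markers, miR-133a was kept on all 6 and miR-206 on 3, and the liver marker miR-122 on 3. Of the fibroblast and smooth muscle markers, miR-145 and miR-214 were kept on all 6, miR-143 on 3 and miR-199a-5p on 2. The summed scaled intensity of the kidney tubule markers was 60.0 to 67.2 in control and 99.5 to 143 in treated samples. Within that list the dim miR-204 went the other way, with means of 6.29 and 2.11. The summed scaled intensity of the epithelial markers was 379 to 380 and 386 to 433, although miR-200a had a lower treated mean. That of the fibroblast and smooth muscle markers (miR-143, miR-145, miR-199a-5p and miR-214) was 33.0 to 52.4 and 28.2 to 39.7. The part of these differences in the miR-29 values was not tested.

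All 3 members were kept on all 6 arrays, and none passed the test between the groups in the fit across all tested probes. Each had a lower mean in the treated samples, by 0.05 for miR-29a, 0.16 for miR-29b and 0.12 for miR-29c on the log2 scale. In the same fit 345 of all 625 tested probes had a difference below 0. With limma and Benjamini-Hochberg adjustment, 0 of the 3 passed the threshold of 0.05, where 6 of all 625 tested probes did (0.96%). Before adjustment, 0 of 3 members had a p under 0.05, where 44 of the 625 probes were higher and 50 lower (7.04% and 8%). The groups overlapped for each member on the quantile scale, where they did not overlap for 122 of the 624 probes with a value on every array (19.6%). With array weights, and with a trended, robust variance, the count of members was again 0. The fit used intensities after background correction with an offset of 50 and quantile normalization. Because the offset shrinks differences of dim probes, values are first given as scaled intensity. This is the background-subtracted intensity with 1 factor per array that sets the median of the 503 probes kept on all 6 arrays to 25. Levels of different probes cannot be compared on these arrays.

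MiR-29a, the product of the chromosome 7 cluster alone, had scaled intensities of 624, 598 and 716 in control replicates 1 to 3. On the treated arrays it had 624, 563 and 594. Control replicate 3 was the highest of the 6 arrays, and the other 5 lay between 563 and 624, so the groups overlapped. The means were 646 ± 62.1 and 594 ± 30.2 (SD, n = 3 per group), a ratio of geometric means of 0.921. In the limma fit the log2 difference of treated minus control was -0.05 (SE 0.087, adjusted p = 0.806). The 95% interval of the fold was 0.839 to 1.12. Over the alternatives the limma adjusted p ran from 0.00348 to 0.9505, and it was under 0.05 in 3, each with miR-29a higher in the treated samples. Without control replicate 3 the log2 difference was 0.047 (limma adjusted p = 0.737), so its sign rested on that array. On the scaled intensities without the offset, the interval was wider, from 0.729-fold to 1.16-fold (limma adjusted p = 0.748).

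MiR-29b, the product of both clusters, had control values of 678, 639 and 675. The treated arrays had 646, 517 and 482. Treated replicate 1 lay inside the control range, and the other 2 treated arrays lay below every control array. The mean was 664 ± 21.7 in control and 548 ± 86.2 in treated samples (SD, n = 3), a coefficient of variation of 3.27% and 15.7%, and the ratio of geometric means was 0.820. The limma log2 difference was -0.16 (SE 0.096, adjusted p = 0.470, between 0.0812 and 0.969 in the alternatives), with a 95% interval of 0.763-fold to 1.05-fold. On the scaled intensities the interval was 0.634-fold to 1.06-fold (limma adjusted p = 0.467). Without treated replicate 1, the log2 difference was -0.29 (limma adjusted p = 0.0812), the smallest adjusted p of miR-29b under any alternative run. Only 4% of the tested probes had a lower difference than miR-29b on the quantile scale, and 20.7% on the scaled intensities. With the offset and no normalization, or 1 constant per array, 70.7% had a lower one.

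MiR-29c, the product of the chromosome 1 cluster alone, had 132, 133 and 142 in the control samples. The treated arrays had 110, 106 and 136. As with miR-29b, a single treated array reached the control range, but it was replicate 3 and not replicate 1. The mean was 136 ± 5.62 in control and 118 ± 16.2 in treated samples (SD, n = 3), a ratio of geometric means of 0.861. The limma log2 difference was -0.12 (SE 0.051, adjusted p = 0.353), and the 95% interval of the fold was 0.848 to 1.00. Over the alternatives the limma adjusted p ran from 0.0176 to 0.937, and it was under 0.05 in 1, with miR-29c higher in the treated samples. On the scaled intensities the interval was 0.672-fold to 1.10-fold (limma adjusted p = 0.575). A p that misses the threshold does not show that the levels were the same, and these intervals include both lower and higher levels of each member.

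**Figure D1:**
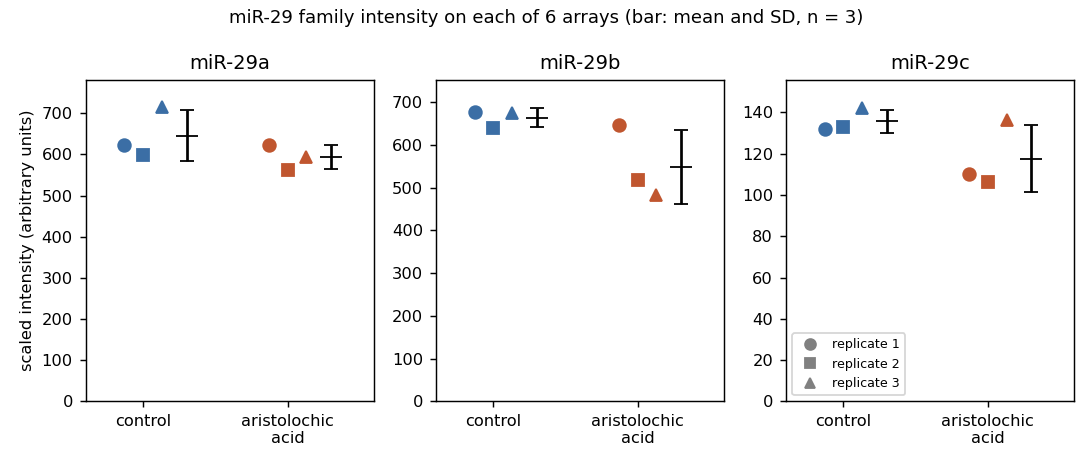
Scaled intensity (arbitrary units, axes from 0) of miR-29a, miR-29b and miR-29c on each of the 3 control (blue) and 3 aristolochic acid arrays (orange), with the symbol giving the replicate and the bar the mean and SD. Control replicate 3 is the highest miR-29a value at 716, and 2 of 3 treated arrays lie below all control arrays for miR-29b and for miR-29c.

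**Figure D2:**
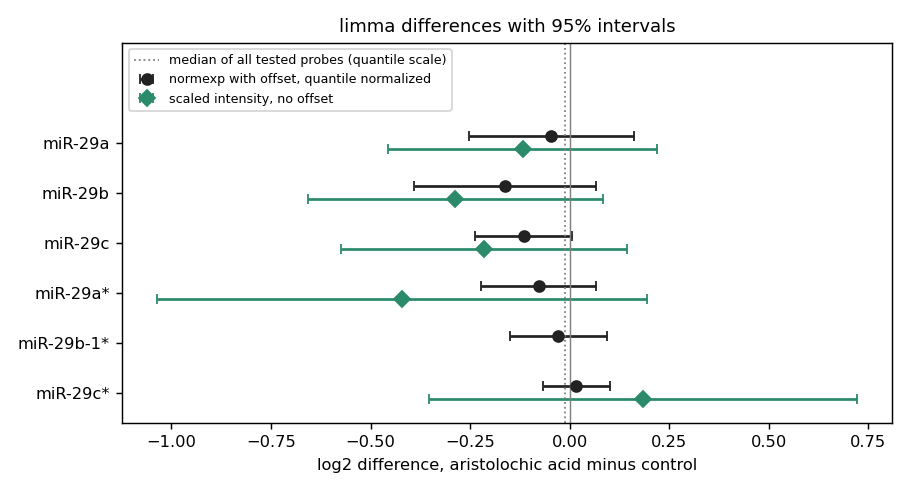
Log2 difference of aristolochic acid minus control with its 95% interval from limma, for the 3 members and the 3 tested 5p products, on the quantile normalized values (black circles) and on the scaled intensities (green diamonds). All intervals span 0, and the scaled one is the wider wherever both are drawn. MiR-29b-1* was not kept on all 6 arrays and has no limma fit on the scaled intensities.

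The sign of the members' differences depended on how the arrays were scaled. Before any scaling, background-subtracted miR-29a was 395 ± 22.4 in control and 524 ± 25 in treated samples (SD, n = 3), with every treated array above every control array. MiR-29c likewise had 83.2 ± 2.65 and 103 ± 9.47 without overlap, and miR-29b had 408 ± 30.5 and 485 ± 81.8 with overlap. The same separation, treated above control, held for 270 of the 503 probes kept on all 6 arrays (53.7%), so 2 of 3 members is near the background. Without normalization between arrays, miR-29a and miR-29c passed the threshold as higher, with log2 differences of 0.37 (limma adjusted p = 0.00348) and 0.22 (limma adjusted p = 0.0176). There the median of all tested probes was itself 0.14, and 310 of the 625 passed, all as higher. Over 10 scalings miR-29a was below 0 in 4, miR-29b in 6 and miR-29c in 5. These scalings are not independent. The 5 that keep the offset and shift each array by at most 1 constant differ only by such shifts, as do the 3 without offset. The counts therefore depend on which scalings were run. MiR-29a passed as higher in 3 of the 10, miR-29c in 1 and miR-29b in 0. In those 3 the share of all tested probes that passed as higher was 49.6% without normalization, 13.1% with the median and 9.92% with the 75th percentile of all human probes.

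Relative to the median of all tested probes, the members' position differed between scalings. With the 3 scalings that use no offset, miR-29a lay 0.04, miR-29b 0.21 and miR-29c 0.14 below the median on the log2 scale. With the 5 settings that keep the offset and shift each array by at most 1 constant, they lay 0.23, 0.079 and 0.075 above it. With quantile normalization they lay 0.04, 0.15 and 0.11 below it, and with cyclic loess 0.10, 0.25 and 0.081 below it, although both also keep the offset.

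**Figure D3:**
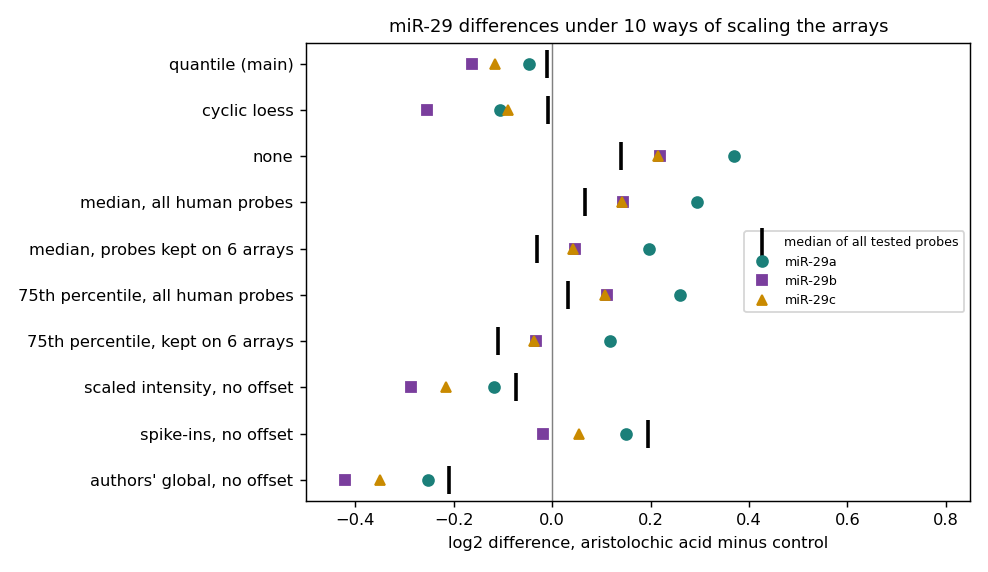
Log2 difference of aristolochic acid minus control for miR-29a, miR-29b and miR-29c under 10 ways of scaling the arrays, with the median of all tested probes as a black bar. The miR-29a difference runs from -0.25 on the authors' values to 0.37 without normalization. Scalings that differ only by a constant per array keep the gaps between the probes.

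The clusters were compared by the ratio of miR-29a to miR-29c within each array, which does not depend on the factor of the array. The log2 ratio was 2.24, 2.17 and 2.33 in the control samples and 2.50, 2.40 and 2.13 in the treated samples. Treated replicates 1 and 2 lay above every control array and treated replicate 3 below, so the treated arrays did not all move one way. The difference in log2 ratio between the groups was 0.10 (SE 0.12), with an exact permutation p of 0.5, 2-sided, where 3 against 3 arrays cannot give less than 0.1. Because the probes differ, the ratio shows unequal change at most and says nothing about how much of each miRNA was present. MiR-29a over miR-29b had a mean log2 ratio of -0.04 ± 0.11 in control and 0.12 ± 0.18 in treated samples (SD, n = 3, exact permutation p = 0.2). MiR-29b over miR-29c had 2.29 ± 0.060 and 2.22 ± 0.37 (exact permutation p = 0.9). Adjusted over the 6 pairs of probes compared, of which 5 were chosen after the values were seen, the p of each of these ratios was 0.6 or 0.9. Among these 3 ratios the widest spread was that of miR-29b over miR-29c on the treated arrays, from 2.55 in replicate 1 to 1.82 in replicate 3.

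**Figure D4:**
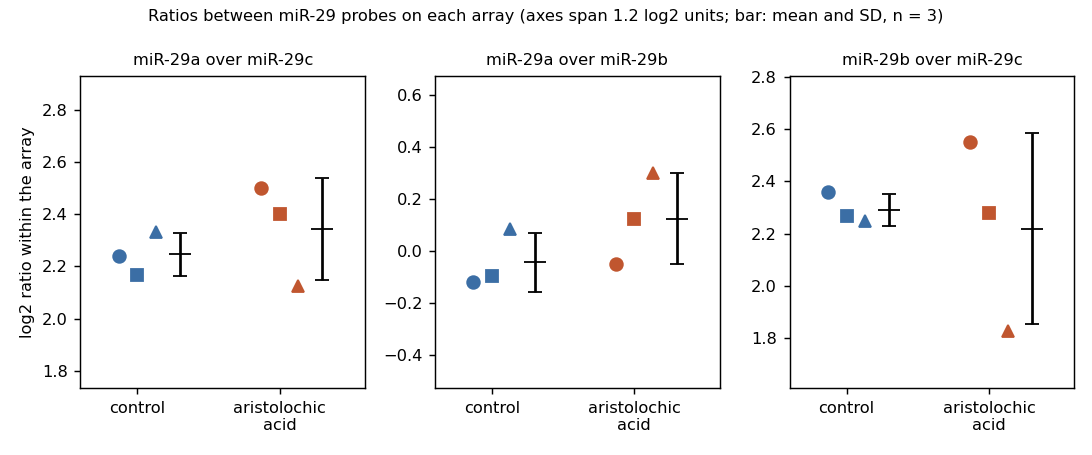
Log2 ratio between pairs of miR-29 probes on each control (blue) and aristolochic acid array (orange), with the bar giving the mean and SD of 3 arrays and all axes spanning the same range. The groups overlap in each of the 3 pairs drawn, among which the treated arrays spread most for miR-29b over miR-29c, from 1.82 to 2.55.

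By sequence the 5p products tell the 4 hairpins apart, and miR-29b-1* and miR-29b-2* belong to separate copies of miR-29b. No probe sequences are given, so how much signal the similar miR-29b-1* and miR-29b-2* shared was not tested. The mature sequences of the 5p products, again with the seed in capitals, share no seed with each other or with the members.
miR-29a*: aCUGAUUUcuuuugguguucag
miR-29b-1*: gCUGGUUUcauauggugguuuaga
miR-29b-2*: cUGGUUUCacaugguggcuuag
miR-29c*: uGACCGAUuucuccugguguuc
All were dim. MiR-29a* was kept on all 6 arrays, with raw intensities 6.0 to 14.7 above the lowest kept value of the array. Its scaled intensity was 23.5, 14.3 and 25.5 in control and 12.4, 19.9 and 14.4 in treated samples, and the groups overlapped. MiR-29c* was kept on all 6 arrays too, but only 0.233 to 1.95 above the lowest kept value, with scaled intensities of 4.34, 5.02 and 6.39 against 7.85, 4.69 and 5.55.

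MiR-29b-1*, from the chromosome 7 hairpin, was kept on the 3 control arrays and on 2 of the 3 treated arrays. Its scaled intensity was 8.67, 8.29 and 10.8 in control and 8.50, 11.8 and 2.14 in treated samples, where replicate 3 was the array on which it was not kept. MiR-29b-2*, from the chromosome 1 hairpin, was kept on 2 control arrays and 1 treated array, so it was not tested. It had scaled intensities of 5.23, 4.27 and 0.488 in control and 4.89, 7.01 and 1.66 in treated samples, and the groups overlapped. Of the 3 tested products, 0 passed. The log2 difference was -0.08 for miR-29a* (SE 0.060, limma adjusted p = 0.591), -0.03 for miR-29b-1* (SE 0.051, limma adjusted p = 0.803) and 0.02 for miR-29c* (SE 0.035, limma adjusted p = 0.832). The offset of 50 exceeds the signal of these probes, so the fit shrinks their differences strongly. On the scaled intensities the fold of miR-29a* was 0.747, with a 95% interval of 0.488 to 1.14. That of miR-29c* was 1.14, with an interval of 0.783 to 1.65. Whether the copies of miR-29b differed in their response was not tested, and miR-29b-2* had passed the filter in neither group.

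**Figure D5:**
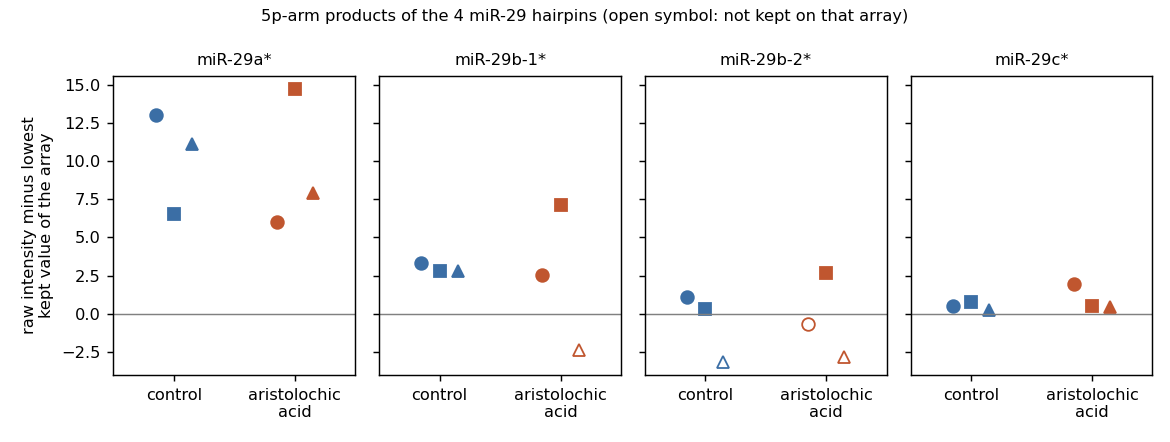
Raw intensity minus the lowest raw intensity kept by the authors on the same array, for the 5p products of the 4 miR-29 hairpins on each control (blue) and aristolochic acid array (orange), with open symbols where the product was not kept. MiR-29a* lies 6.0 to 14.7 above the limit, and miR-29b-2* is kept on 3 of the 6 arrays.

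The pattern of each member over the arrays was compared with that of the others and of all other probes. On the quantile normalized log2 values of the 6 arrays, Pearson's r was 0.44 between miR-29a and miR-29b, 0.28 between miR-29a and miR-29c and -0.0055 between miR-29b and miR-29c. These are descriptions over arrays that share normalization. Among 622 other probes, miR-30e, miR-28-5p and miR-152 had the pattern most like that of miR-29a, with r of 0.989, 0.988 and 0.984. For miR-29b they were miR-550a*, miR-18a* and miR-532-3p (r of 0.962, 0.959 and 0.936), and for miR-29c miR-17, miR-1203 and miR-3907 (0.980, 0.977 and 0.961). These r were picked as the highest among 622 probes over 6 arrays and were not tested. MiR-18a* was kept on 1 treated array and miR-1203 on 2, so both lay near the background. Ranked by likeness to miR-29a, miR-29b came 125th and miR-29c 179th.

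Other miRNAs tied to fibrosis were read beside the family. All 19 antifibrotic miRNAs listed were tested. Of these, 0 passed in either direction with limma, 13 had differences below 0 and 6 above, and the median was -0.04. Of all 625 probes, 345 had differences below 0 and 280 above, and the median was -0.01. The antifibrotic list holds the miR-30 and miR-200 families, which restrain epithelial-mesenchymal transition, and let-7, miR-19b, miR-26, miR-101 and miR-133. The members with the smallest p were miR-200c, at a scaled 31.6 ± 3.94 in control against 48.7 ± 5.18 with the toxin (SD, n = 3, limma adjusted p = 0.0687), and miR-141. MiR-141 had 2.82 ± 6.17 and 15.5 ± 3.72 (SD, n = 3, limma adjusted p = 0.138) and was kept on 5 of 6 arrays. These were 2 control and 3 treated arrays, so it passed the filter only through the treated group, where it was higher. Its place among the smallest p therefore rests partly on the filter. Of 11 profibrotic miRNAs, 5 were tested and 0 passed, and the other 6 were kept on at most 3 arrays. The tested ones had 3 differences above 0, 2 below and a median of 0.02. MiR-192, which promotes collagen expression in mesangial cells, had 24.02 ± 4.30 and 49.5 ± 10.7 (SD, n = 3, limma adjusted p = 0.0687). MiR-155, an inflammatory miRNA, had 70.9 ± 8.98 and 54.4 ± 6.75 (SD, n = 3, limma adjusted p = 0.249).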

How the data were processed

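MiRNA levels were measured on 6 single-colour arrays. Each sample's 500 ng of total RNA was labelled in Cy5, per the labels' protocols. Platform, scanner and software are not given in the sources used here. Per the file headers, the deposited values are intensity: raw, background-subtracted and globally normalized. Tested on the values, the subtracted background was 1 constant per array, and the deposited global intensity was the subtracted one times 1 factor per array that set the median of kept human probes to 25. The authors' value table repeats the latter.

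Raw intensity was corrected with normexp (offset 50, fitted on all spots), control spots and outlier marks were left out, and the human probes were quantile normalized. The 625 probes kept throughout at least 1 group were fitted in limma 3.58.1 (R 4.3.3) on group alone, with Benjamini-Hochberg adjustment at 0.05. Ratios were compared by exact permutation, 2-sided. The named miRNAs were the 3 members, the 4 products of the 5p arms, listed fibrosis miRNAs past the threshold or otherwise the 2 of each list with the smallest p, and the 3 probes most correlated with each member. MiR-21 was named as well, for the largest difference of the profibrotic list. The members and lists were chosen with earlier results of these data known. Alternatives changed the scaling, background, filter, variance model and replicate block, and left out each array. The steps were also run on simulated data, in which array brightness was drawn without regard to group, unlike on these arrays. That run does not test how the scaling affects the members. Precision is limited by the number of arrays. Symbols are those printed on the arrays, and sequences and positions are from RefSeq (GRCh38.p14); the files name no build.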

Additional observations from a re-analysis of the deposited data

How the results depend on the processing

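Median and 75th percentile scaling over the probes kept on all 6 arrays were chosen after the data were seen. The sign of miR-29a turned without normalization (0.37), with median scaling over all human probes (0.29) or the kept probes (0.20), with the 75th percentile over all (0.26) or the kept probes (0.12), on the spike-ins (0.15) and without control replicate 3 (0.047). That of miR-29b turned without normalization (0.22), with median scaling over all (0.14) or kept probes (0.047) and with the 75th percentile over all (0.11). That of miR-29c turned in the same 4, at 0.22, 0.14, 0.043 and 0.11, and on the spike-ins (0.054). Leaving out 1 array gave -0.11 to 0.047 for miR-29a, -0.29 to -0.094 for miR-29b and -0.15 to -0.066 for miR-29c, with 0 of the 3 past the threshold in each of the 6 fits. MiR-29a* and miR-29b-1* turned without normalization (0.064 and 0.072), and leaving out 1 array gave -0.14 to -0.040 for miR-29a*. MiR-29b-1* turned without treated replicate 3 (0.021), and leaving out 1 array gave -0.062 to 0.021. MiR-29c* turned with the 75th percentile over all (-0.0077) or kept probes (-0.15, limma adjusted p = 0.0461), with median scaling over kept probes (-0.071) and without treated replicate 1 (-0.0045, range over left-out arrays -0.0045 to 0.034). The cause of the turns was not tested.

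Over all tested probes 6 miRNAs passed with the main settings, 310 without normalization, 82 with median scaling over all and 37 over kept probes, 64 with the 75th percentile over all (62 higher, 2 lower) and 245 over kept probes (38 higher, 207 lower), 20 on the spike-ins, 1 on the authors' values, 10 with trend and robust and 14 at a threshold of 0.1. The fits that left out 1 array gave 3 to 5, the lowest without control replicate 1 or treated replicate 2. The same-numbered arrays did not deviate together (r of -0.14, -0.18 and 0.0077), and r of the other pairs ran from -0.10 to 0.21. With 3 arrays per group, these values cannot decide whether the numbers pair the samples. With the replicate block 4 miRNAs passed and none of the 3 members did, with limma adjusted p of 0.836 for miR-29a, 0.403 for miR-29b and 0.403 for miR-29c. Paired, the miR-29a to miR-29c difference stayed 0.10 (exact p = 0.5, the smallest possible being 0.25), and leaving out 1 array gave 0.018 to 0.21.

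The antifibrotic median moved to 0.27 without normalization, 0.20 and 0.10 with median scaling over all and kept probes, 0.16 and 0.022 with the 75th percentile, -0.074 with cyclic loess, -0.11 on scaled intensities, 0.16 on the spike-ins, -0.24 on the authors' values and -0.025 with array weights, and leaving out 1 array gave -0.063 to 0.0039. The profibrotic median moved to 0.10 without normalization, -0.069 and -0.15 with median and 75th percentile scaling over kept probes, 0.22 on scaled intensities, 0.49 on the spike-ins, 0.085 on the authors' values and 0.13 over probes kept on all 6 arrays, and leaving out 1 array gave -0.0019 to 0.043.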
